A study of Homo sapiens with 6 samples.

Results

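NRF2 and the genes around it were followed through ACHN cells in which DNAJC2, a ribosome-associated co-chaperone gene, had been knocked down. The 9 genes were chosen by name from the 20532 genes of the deposited count table, and each matched 1 row. They are NRF2 itself (gene symbol NFE2L2), its relative NRF1 (NFE2L1), the NRF2 inhibitor KEAP1, the small MAF partners MAFF, MAFG and MAFK, and the target genes NQO1, ME1 and TALDO1. The rule sets no threshold on a measured value, but the genes were chosen with earlier results of these data known.

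NRF2 is a basic leucine zipper transcription factor of the cap'n'collar family. KEAP1 holds it in the cytoplasm and presents it to a CUL3 ubiquitin ligase for degradation, and oxidants or electrophiles that modify KEAP1 let NRF2 accumulate, mostly without a change in its mRNA. In the nucleus NRF2 pairs with a small MAF protein and binds antioxidant response elements of genes for quinone reduction, glutathione, thioredoxin and NADPH supply. NRF1 binds related elements but is an endoplasmic reticulum protein, cut loose when the proteasome is overloaded, and is best known for inducing proteasome subunit genes. In kidney tumours NRF2 activity is known to counter ferroptosis, the lipid peroxide death in which the series had a stated interest.

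ACHN is an established human renal carcinoma line, which the labels class as clear cell renal cell carcinoma. All 6 libraries came from cells that had received a lentivirus. The 3 shCtrl libraries carried a negative control hairpin and the 3 shDNAJC2 libraries a hairpin against DNAJC2. The lines were stable and the libraries are described as biological replicates, but nothing states whether they came from separate transductions or cultures, so p-values measure the spread between these libraries. No hairpin sequence is given in the sources used here.

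Total counts ranged from 17491462 to 25760291. In CPM (counts scaled to a common library total, with TMM factors), DNAJC2 measured 76.7, 69.8 and 86.5 across shCtrl 1 to 3 and 51.2, 50.4 and 38.5 across shDNAJC2 1 to 3, so that every library matched its label. One library stood apart from its group: on the first principal component (79.4% of the variance) shCtrl 3 lay at 36.1, beside shDNAJC2 1 and 2 at 34.3 and 34.6, while shCtrl 1 and 2 lay at −52.6 and −51.0. Library shDNAJC2 3 lay between, at −1.40. Between shCtrl 3 and shDNAJC2 2, 78 of 13988 genes differed by more than 1 on the log2 scale, against 2080 between shCtrl 3 and shCtrl 1. What set shCtrl 3 apart was not tested, and every value over all 6 libraries depends on it. Results are therefore given with and without shCtrl 3. Of 7 renal epithelial or renal carcinoma markers, 3 (KRT8, KRT18 and PAX8) were at 1 CPM or more in every library and CDH16 was at 0 in all. CA9, of the same list, ranged from 0.861 to 1.30 CPM over shCtrl 1 and 2 and from 7.68 to 8.83 CPM over the other 4 libraries. Blood markers (6 genes) summed to 0.984 to 2.22 CPM and endothelial markers (4 genes) to 1.15 to 6.25 CPM over the 6 libraries, with CD3E and CDH5 at 0 in all. KDR, of the endothelial list, ranged from 0.287 to 0.306 CPM over shCtrl 1 and 2 and from 1.79 to 3.01 CPM over the others. All 5 fibroblast markers were above 1 CPM, with a sum of 953 to 3135 CPM in shCtrl and 842 to 1383 CPM in shDNAJC2, most of it from the collagen gene COL1A1, at 2796, 2785 and 695 CPM in shCtrl 1, 2 and 3. That sum ran opposite to most of the 9 genes and CA9 and KDR ran with them. Their part in the results was not tested. In bulk RNA fewer cells of a type and less RNA per cell cannot be told apart.

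NFE2L2 mRNA itself was nearly level over the 6 libraries, while NQO1, ME1, TALDO1, NFE2L1 and the 3 small MAF genes were all higher in the knockdown libraries than in shCtrl 1 and shCtrl 2. The largest such difference was in MAFF, whose knockdown mean was 3.46 times the mean of shCtrl 1 and 2, followed by NQO1 (3.14 times) and MAFG (2.97 times). The control library shCtrl 3 lay within or above the range of the knockdown libraries for these genes, NFE2L2 included. As a result none of the 9 separated the groups: in 0 of 9 did every knockdown library lie above every control library, against 7.33% of all genes tested, and in 0 of 9 below, against 8.43%.

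Over all 6 libraries edgeR's quasi-likelihood test called 0 of the 9 genes after Benjamini-Hochberg adjustment over 13988 genes, and it called 0 of all genes (0%). At an unadjusted p under 0.05 stood 0 of the 9 and 1585 of all genes. DESeq2 called 0 of the 9 and 18 of all genes. limma-voom called 0 of both, and at an unadjusted p under 0.05 it had 1 of the 9 (NQO1) and 1473 of the 13988 genes. All 9 fitted log2 fold changes were positive, with a median of 0.41, beside 6671 positive of 13988 genes and a median of −0.016 for all genes. An exact permutation test of 3 libraries against 3 cannot give a p below 0.1, and here the two-sided values ran from 0.2 for NQO1 and ME1 to 0.6 for KEAP1.

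Without shCtrl 3, edgeR called 8 of the 9 higher and 0 lower, the exception being NFE2L2. Of the 14201 genes tested in that fit 17.8% were called higher and 17% lower. Leaving out that library was decided with its position known, so these counts describe 2 control libraries against 3 and are no independent test. Leaving out any other single library gave 0 calls among the 9.

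**Figure D1:**
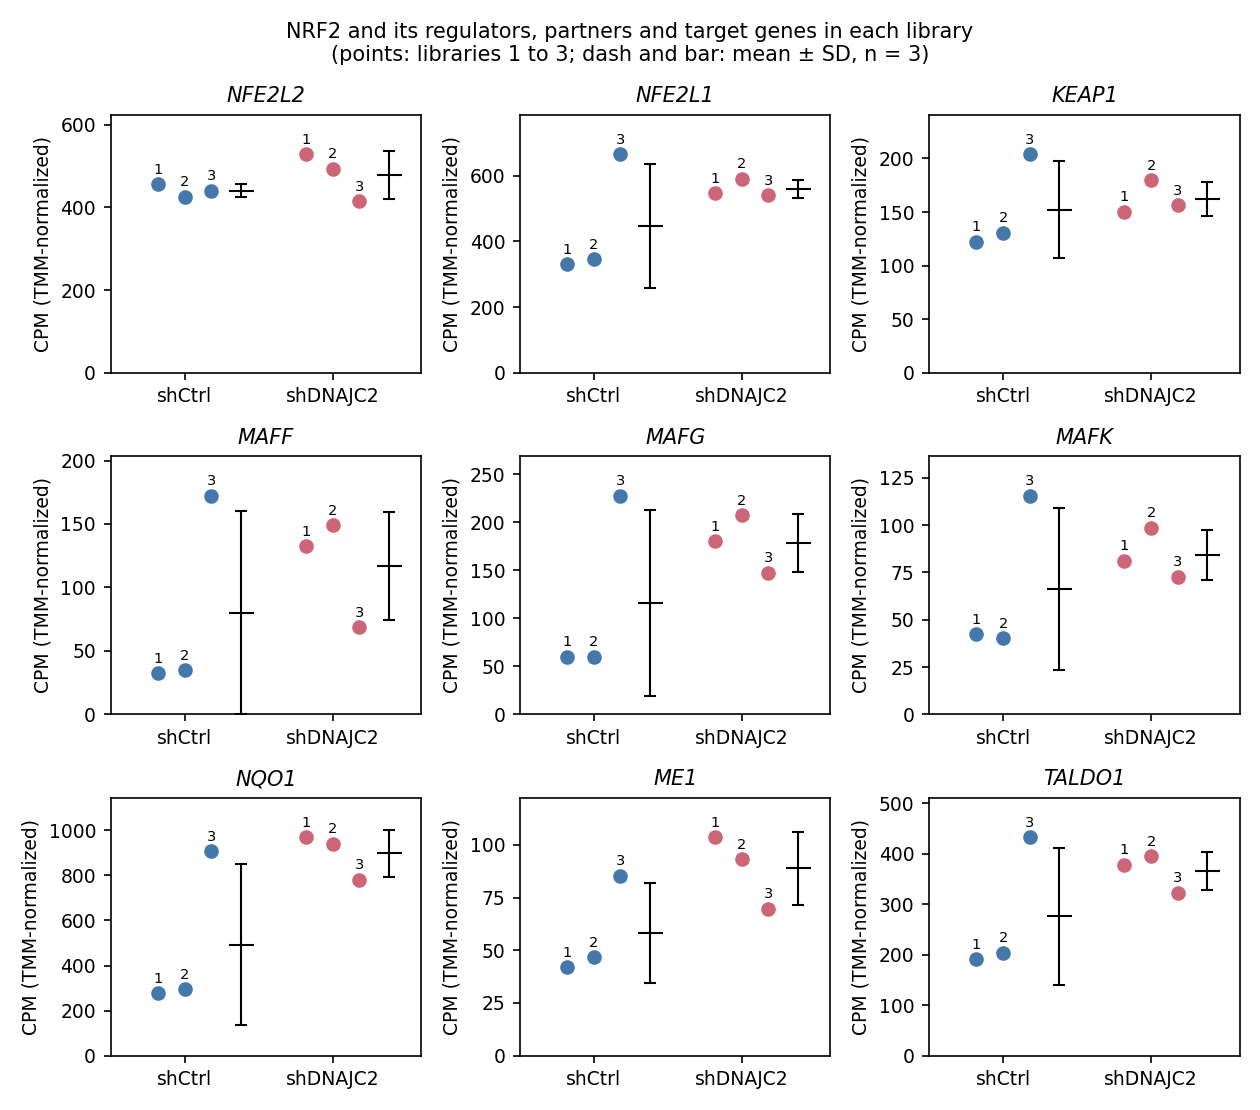
Level of each of the 9 genes in each library, in TMM-normalized CPM on a linear axis from 0, with shCtrl in blue, shDNAJC2 in red, library numbers above the points, and the mean ± SD (n = 3) as a dash and bar. NFE2L2 is level, whereas for the other 8 genes shCtrl 3 sits with the knockdown libraries or above them.

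**Figure D2:**
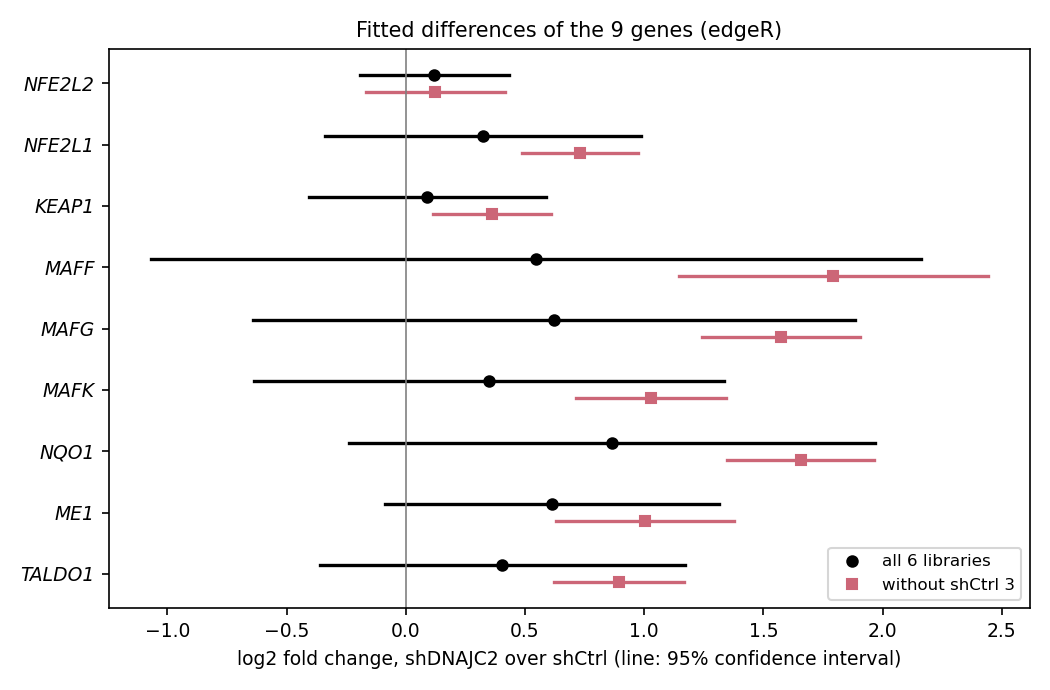
Fitted log2 fold change of shDNAJC2 over shCtrl with its 95% confidence interval, over all 6 libraries (black circles) and without shCtrl 3 (red squares). Every black interval includes 0, and only that of NFE2L2 still does so without shCtrl 3.

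Of the NRF2 switch, the transcription factor gene hardly moved. NFE2L2 (ENSG00000116044, chromosome 2, 177227595 to 177392697 on GRCh38, minus strand) was measured at 455, 426 and 441 CPM for shCtrl 1, 2 and 3 and 528, 493 and 414 CPM for shDNAJC2 1, 2 and 3. The groups overlapped, since shDNAJC2 3 held the lowest level of all 6 and the other knockdown libraries the highest levels. The fitted log2 fold change was 0.12 (standard error 0.13), with a 95% interval of −0.19 to 0.43 (edgeR adjusted p 0.65). Without shCtrl 3 it was 0.12 as well, with an interval of −0.17 to 0.41, the same value to the second decimal.

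KEAP1, the adaptor that marks NRF2 for degradation (ENSG00000079999, chromosome 19, 10486120 to 10503741, minus strand), measured 122, 131 and 204 CPM across the 3 control libraries and 150, 180 and 157 CPM across the 3 knockdown libraries. The highest level was thus in a control library, and all knockdown libraries lay between it and the other controls. The fitted log2 difference was 0.09 over all libraries (95% interval −0.41 to 0.59, adjusted p 0.83). It was 0.36 without shCtrl 3 (adjusted p 0.033 in edgeR) and −0.033 without shCtrl 1. KEAP1 transcripts are rich in GC (60.3%), and with the GC trend of each library removed the value over all libraries was 0.30. The ratio of NFE2L2 to KEAP1 counts, on a log2 scale and free of library scaling, was 1.90, 1.70 and 1.11 in the controls and 1.82, 1.46 and 1.40 in the knockdown. Group means of this ratio were 1.57 ± 0.41 and 1.56 ± 0.22 (SD, n = 3), with an exact permutation p of 1. The lowest ratio was in shCtrl 3 and the order of the rest did not follow the groups.

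The other genes that govern NRF2 turnover or activity showed no common direction. Of 15 listed, 7 had positive and 8 negative log2 fold changes with a median of −0.022, and 0 passed over all libraries. Without shCtrl 3, 2 were called higher and 2 lower, with a median of 0.13, and these counts are near the 17.8% and 17% of all genes called in that fit. The largest change among them was in SQSTM1, which encodes p62, an autophagy receptor that sequesters KEAP1 and is itself a target of NRF2. SQSTM1 was measured at 420, 467 and 2428 CPM for shCtrl 1, 2 and 3 and 1724, 1953 and 1170 CPM for shDNAJC2 1, 2 and 3. Its log2 fold change was 1.87 without shCtrl 3 (edgeR adjusted p 5.8e-04). Here again shCtrl 3 was the highest library and shDNAJC2 3 the lowest of its group. CUL3, the scaffold of the ligase that KEAP1 serves, measured 80.2, 82.9 and 101 CPM across the 3 control libraries and 119, 107 and 87.1 CPM across the 3 knockdown libraries, and did not pass without shCtrl 3 either (0.36, adjusted p 0.064). SKP1, of the second ligase that acts on NRF2, differed by 0.15 over all libraries (standard error 0.11).

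BACH1, a repressor that competes with NRF2 for small MAF partners and the same elements, followed the high libraries. It was measured at 34.8, 33.0 and 79.3 CPM for shCtrl 1, 2 and 3 and 92.6, 82.7 and 58.1 CPM for shDNAJC2 1, 2 and 3. The log2 fold change was 0.67 over all libraries (standard error 0.37) and 1.20 without shCtrl 3 (edgeR adjusted p 0.0020). The groups overlapped through shCtrl 3 and shDNAJC2 3. NFE2L3, another cap'n'collar factor, stayed between 40.6 CPM in shCtrl 3 and 50.3 CPM in shDNAJC2 1, with a log2 fold change of 0.024 (standard error 0.12). Of the 8 relatives listed 5 had enough counts to be tested, and 0 passed over all libraries.

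NFE2L1 (ENSG00000082641, chromosome 17, 48048329 to 48061487, plus strand) had a wider range over the libraries than NFE2L2. It measured 330, 346 and 666 CPM across the 3 control libraries and 547, 591 and 542 CPM across the 3 knockdown libraries. The knockdown libraries lay close together, at 1.65 times the mean of shCtrl 1 and 2, and shCtrl 3 lay above all of them at 1.97 times. The log2 fold change was 0.32 (95% interval −0.34 to 0.99, adjusted p 0.57) over all libraries and 0.73 (0.49 to 0.97, edgeR adjusted p 0.0017) without shCtrl 3.

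Set side by side per transcript length, as TPM values (counts divided by length and rescaled to a common total) computed from the counts and the longest annotated transcript, the ratio of NFE2L1 to NFE2L2 was 0.434, 0.486 and 0.903 in shCtrl 1, 2 and 3. It was 0.619, 0.717 and 0.781 in shDNAJC2 1, 2 and 3. NFE2L2 was the more abundant transcript in every library, by the smallest margin in shCtrl 3. Group means of the ratio were 0.608 ± 0.257 and 0.706 ± 0.0817 (SD, n = 3; exact permutation p = 0.6), a difference smaller than the spread between the controls.

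NRF1 is known to act on proteasome genes. Of 32 proteasome subunit and assembly genes 23 had positive log2 fold changes, but small ones, with a median of 0.08 over all libraries and 0.07 without shCtrl 3. In that second fit 3 of 32 were called higher and 1 lower, beside 17.8% and 17% of all genes. PSMD2, a base subunit of the regulatory particle and the highest of the list in CPM, was measured at 596, 597 and 556 CPM for shCtrl 1, 2 and 3 and 524, 570 and 563 CPM for shDNAJC2 1, 2 and 3. PSMA7, a subunit of the core particle, measured 246, 261 and 338 CPM across the 3 control libraries and 306, 330 and 262 CPM across the 3 knockdown libraries. Neither separated the groups.

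Among 7 genes that process NRF1, 1 was called higher and 0 lower without shCtrl 3, beside 17.8% and 17% of all genes. That 1 was DDI2, the protease that cuts NRF1 into its active form. DDI2 was measured at 30.5, 29.6 and 58.5 CPM for shCtrl 1, 2 and 3 and 58.0, 58.5 and 50.9 CPM for shDNAJC2 1, 2 and 3. The log2 fold change was 0.50 over all libraries and 0.90 without shCtrl 3 (edgeR adjusted p 7.9e-04). Its libraries fell into the same high and low sets as those of NFE2L1. NGLY1, the glycanase that NRF1 needs for activation, measured 19.7, 17.9 and 23.2 CPM across the 3 control libraries and 28.3, 23.5 and 18.8 CPM across the 3 knockdown libraries, and passed in neither fit. VCP, the segregase that pulls NRF1 out of the membrane, had a log2 fold change of −0.15 (standard error 0.11), and HCFC1, a cofactor that stabilises NRF1, one of −0.37 (standard error 0.12, adjusted p 0.43).

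All 3 small MAF genes, whose products lack a transactivation domain and serve as DNA-binding partners for NRF2, NRF1 and BACH1, were low in shCtrl 1 and shCtrl 2 and high elsewhere. MAFF (ENSG00000185022, chromosome 22, 38200767 to 38216511, plus strand) was measured at 32.6, 34.9 and 172 CPM for shCtrl 1, 2 and 3 and 133, 149 and 68.8 CPM for shDNAJC2 1, 2 and 3. MAFG (ENSG00000197063, chromosome 17, 81918270 to 81927714, minus strand) measured 59.9, 60.1 and 228 CPM across the 3 control libraries and 180, 207 and 148 CPM across the 3 knockdown libraries. MAFK (ENSG00000198517, chromosome 7, 1530714 to 1543043, plus strand) was measured at 42.4, 40.3 and 116 CPM for shCtrl 1, 2 and 3 and 81.2, 98.6 and 72.7 CPM for shDNAJC2 1, 2 and 3. In each of the 3 the highest library was shCtrl 3, and shDNAJC2 3 was the lowest of the knockdown libraries but above shCtrl 1 and 2.

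The log2 fold changes over all 6 libraries were 0.55 for MAFF (95% interval −1.07 to 2.16), 0.62 for MAFG (−0.64 to 1.88) and 0.35 for MAFK (−0.64 to 1.33). The intervals are wide, and the control libraries had standard deviations of 80.1, 96.9 and 42.9 CPM against control means of 80.0, 116 and 66.1 CPM. Without shCtrl 3 the log2 fold changes were 1.79, 1.57 and 1.03 (edgeR adjusted p 0.0023, 2.4e-04 and 0.0011). With the GC trend removed, MAFK, at 63.4% GC, had a log2 fold change of 0.62 over all libraries.

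MAFF varied most, over a log2 range of 2.40 between its lowest and highest library, against 1.93 for MAFG and 1.52 for MAFK. It also set shDNAJC2 3 apart from the other knockdown libraries more than any other member did. MAFF stood at 4.18 times the mean of shCtrl 1 and 2 in shDNAJC2 1 and 2 together but at 2.04 times in shDNAJC2 3. For MAFG the corresponding values were 3.23 and 2.46 times, and for MAFK 2.17 and 1.76 times.

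Per transcript length the summed small MAF level was 99.2, 97.5 and 326 TPM in shCtrl 1, 2 and 3 and 257, 291 and 198 TPM in shDNAJC2 1, 2 and 3. The sum was thus between 0.216 times the NFE2L2 level in shCtrl 1 and 0.855 times in shCtrl 3, and 0.495 to 0.670 times in the knockdown libraries (exact permutation p = 0.6). MAFF made up 28.9%, 30.8% and 39.8% of the small MAF sum in the controls and 40.3%, 39.2% and 29.2% in the knockdown libraries. Its share was near 40% in the same 3 libraries in which its level was highest, and in shDNAJC2 3 it was back within the range of shCtrl 1 and 2. Group means of the share were 33.1 ± 5.82% and 36.2 ± 6.12% (SD, n = 3; exact permutation p = 0.7), so the groups did not differ beyond their spread. MAFG held 34.2 to 40.8% of the sum, with the highest share in shDNAJC2 3.

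**Figure D3:**
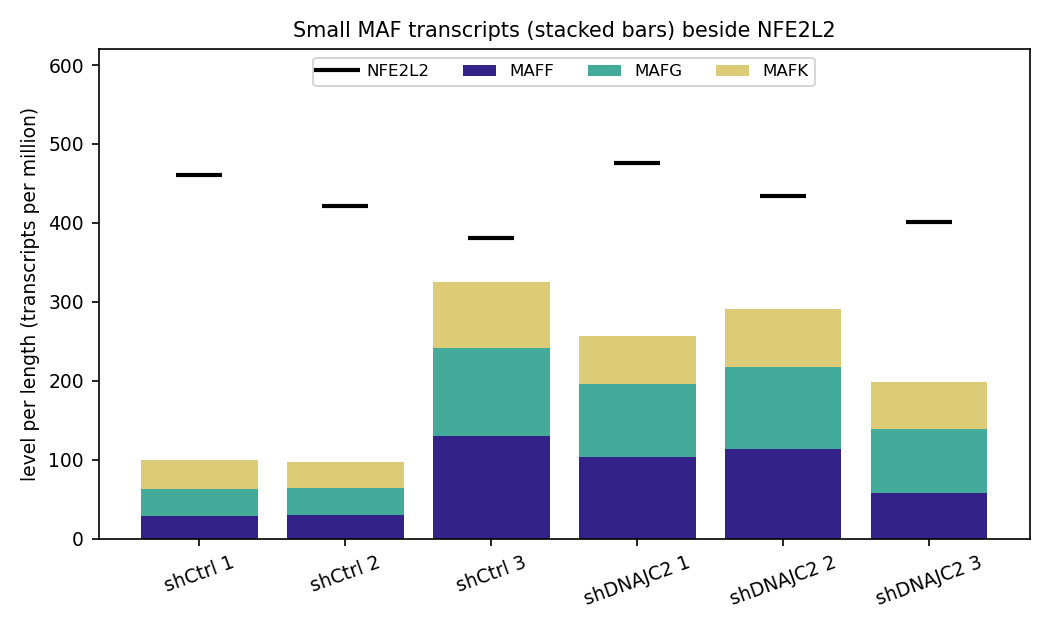
Stacked bars give MAFF, MAFG and MAFK in each library per transcript length (TPM, linear axis from 0), and the black dash gives NFE2L2 on the same scale. The small MAF sum runs from 97.5 TPM in shCtrl 2 to 326 TPM in shCtrl 3, while NFE2L2 stays between 381 and 476 TPM.

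Neighbouring genes share sequence with 2 of these 3 and with other members. MAFK shares 809 exonic bases with TMEM184A on the opposite strand, and the strand setting of the counting was not given in the sources used here. TMEM184A was lowest in shCtrl 1 and 2 (10.3 and 8.94 CPM) and highest in shCtrl 3 (22.6 CPM), with shDNAJC2 3 (14.9 CPM) below the other knockdown libraries, which is the order of the libraries in MAFK. MAFG shares 105 exonic bases with SIRT7 on the same strand, and SIRT7 was between 29.2 and 37.8 CPM in all 6. The NFE2L2 model shares 54 exonic bases with AGPS on the opposite strand, and 1054 on the same strand with AC019080.1, a transcript annotated as sense-overlapping and not analysed here. Antisense genes not analysed here share 190 exonic bases with NFE2L2, 192 with NFE2L1, 224 with MAFG and 575 with NQO1. Whether shared reads moved any of these values was not tested.

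Of the target genes, NQO1 had the largest fitted difference over the 6 libraries, which did not pass. It was also the largest of all 9 in that fit, but with the GC trend removed MAFF was at 0.81 as well. It encodes a cytosolic quinone reductase that uses NADPH or NADH, and its mRNA is the usual indicator of NRF2 activity. NQO1 (ENSG00000181019, chromosome 16, 69706996 to 69726951, minus strand) was measured at 278, 294 and 906 CPM for shCtrl 1, 2 and 3 and 970, 941 and 780 CPM for shDNAJC2 1, 2 and 3. The lowest of the knockdown libraries was shDNAJC2 3, and shCtrl 3 lay among them, between shDNAJC2 2 and shDNAJC2 3. The fitted log2 fold change was 0.87 (standard error 0.46, 95% interval −0.24 to 1.97, edgeR adjusted p 0.44), and 1.66 without shCtrl 3 (1.35 to 1.96, adjusted p 1.5e-04). Leaving out any other library gave 0.59 to 0.97.

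ME1 encodes the cytosolic malic enzyme, which makes NADPH while converting malate to pyruvate. ME1 (ENSG00000065833, chromosome 6, 83210389 to 83431071, minus strand) measured 42.1, 46.7 and 85.4 CPM across the 3 control libraries and 104, 93.2 and 69.6 CPM across the 3 knockdown libraries. Both shDNAJC2 1 and shDNAJC2 2 exceeded every control, and only shDNAJC2 3 fell below shCtrl 3. ME1 had the smallest unadjusted p of the 9 in edgeR (0.076), and its fitted log2 difference was 0.61 (95% interval −0.09 to 1.31, adjusted p 0.43). Without shCtrl 3 that difference was 1.004 (0.63 to 1.38, adjusted p 0.0027).

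TALDO1 encodes transaldolase of the non-oxidative pentose phosphate pathway. TALDO1 (ENSG00000177156, chromosome 11, 747329 to 765024, plus strand) was measured at 191, 204 and 433 CPM for shCtrl 1, 2 and 3 and 378, 395 and 323 CPM for shDNAJC2 1, 2 and 3. As in NFE2L1 and the small MAF genes, shCtrl 3 was the highest library. The log2 fold change was 0.41 (95% interval −0.36 to 1.17, adjusted p 0.54) over all libraries and 0.89 without shCtrl 3 (0.62 to 1.17, edgeR adjusted p 0.0011).

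**Figure D4:**
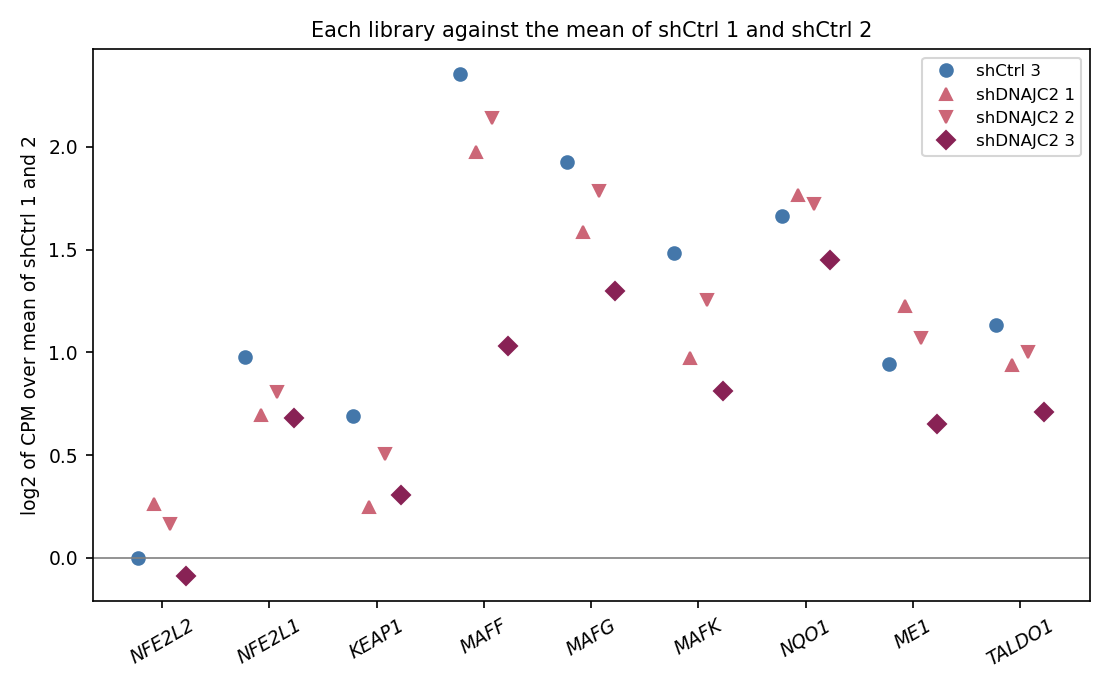
Log2 ratio of each library's CPM to the mean of shCtrl 1 and shCtrl 2, for shCtrl 3 (blue circles), shDNAJC2 1 and 2 (red triangles) and shDNAJC2 3 (dark diamonds). shDNAJC2 3 lies lowest of the 4 for 8 of the 9 genes, and shDNAJC2 1 does for KEAP1.

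Apart from NFE2L2, which was nearly level, the members fell into 3 patterns relative to shCtrl 1 and 2. In NFE2L1 and KEAP1 shDNAJC2 3 stood level with the other knockdown libraries (0.951 and 0.949 times their mean) and shCtrl 3 exceeded them (1.17 and 1.24 times). In NQO1 and ME1 shCtrl 3 stood a little below shDNAJC2 1 and 2, at 0.948 and 0.867 times their mean. In this pair shDNAJC2 3 fell to 0.816 and 0.707 times that mean. NFE2L2 had like ratios, at 0.863 times for shCtrl 3 and 0.811 times for shDNAJC2 3. Its shDNAJC2 1 and 2 libraries, however, stood at only 1.16 times the mean of shCtrl 1 and 2. In MAFF, MAFG, MAFK and TALDO1 shCtrl 3 exceeded shDNAJC2 1 and 2 by 1.12 to 1.29 times. There shDNAJC2 3 fell to between 0.489 (MAFF) and 0.835 times (TALDO1), a range that holds the values of NQO1 and ME1. These ratios are between single libraries and have no replicate error.

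Ordered by their mean level per length over all 6 libraries, TALDO1 (625 TPM) and NQO1 (622 TPM) came first, then NFE2L2 (429), NFE2L1 (278), KEAP1 (141), MAFF (77.2), MAFG (75.9), MAFK (58.3) and ME1 (57.2 TPM). The ranges of MAFF, MAFG, MAFK and ME1 over the libraries overlapped, and differences between genes were not tested. TALDO1 exceeded NQO1 in every control library (408, 428 and 794 against 275, 285 and 767 TPM). In every knockdown library NQO1 exceeded TALDO1 (855, 811 and 739 against 722, 736 and 662 TPM). This depends on the division by length: in CPM NQO1 exceeded TALDO1 in all 6 libraries. The order per length was not the same in all libraries. In shCtrl 1 NFE2L2, at 460 TPM, exceeded TALDO1 (408 TPM) and NQO1 (275 TPM), whereas in shCtrl 3 NFE2L2 was at 381 TPM and TALDO1 and NQO1 at 794 and 767 TPM.

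Other NRF2 targets were set beside NQO1. Of 31 listed 30 were in the table and 29 had enough counts, of which 26 had a positive log2 fold change, with a median of 0.53 over all libraries (all genes −0.016), and 0 passed. Without shCtrl 3, 24 were called higher and 1 lower, beside 17.8% and 17% of all genes, with a median of 0.96. GCLM, a modifier subunit in the first step of glutathione synthesis, measured 35.1, 39.5 and 175 CPM across the 3 control libraries and 198, 185 and 142 CPM across the 3 knockdown libraries. TXNRD1, which reduces thioredoxin, was measured at 470, 471 and 2410 CPM for shCtrl 1, 2 and 3 and 2489, 2473 and 1850 CPM for shDNAJC2 1, 2 and 3. SRXN1, which restores overoxidised peroxiredoxins, measured 74.8, 74.9 and 305 CPM across the 3 control libraries and 270, 293 and 269 CPM across the 3 knockdown libraries. In these 3 genes, as in NQO1, shCtrl 1 and 2 were low and the other 4 libraries high. FTL and FTH1, the ferritin chains, were the highest of the list in CPM. Their log2 fold changes were 0.53 and 0.75 over all libraries and 1.19 and 1.89 without shCtrl 3. How reads shared with their pseudogenes were counted was not given in the sources used here. HMOX1, the haem-degrading enzyme gene, spread widest, from 15.4 CPM in shCtrl 1 to 1198 CPM in shCtrl 3, and among the knockdown libraries from 145 CPM in shDNAJC2 3 to 886 CPM in shDNAJC2 2.

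TALDO1 was set beside the other enzymes of its pathway. Of 8 listed 7 were tested, 6 with a positive log2 fold change and a median of 0.14, and without shCtrl 3 the median was 0.46 with 5 called higher, beside 17.8% of all genes. PGD, phosphogluconate dehydrogenase, which makes NADPH, measured 144, 149 and 265 CPM across the 3 control libraries and 250, 255 and 206 CPM across the 3 knockdown libraries. TKT, transketolase, was measured at 337, 375 and 750 CPM for shCtrl 1, 2 and 3 and 558, 618 and 506 CPM for shDNAJC2 1, 2 and 3. In PGD and TKT the highest library was shCtrl 3, the pattern of TALDO1. Whether TALDO1 differed from these enzymes in its response was not tested.

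Enzymes that make NADPH or reduce quinones by other routes were listed beside ME1 and NQO1. Of 10 tested, 4 had a positive and 6 a negative log2 fold change with a median of −0.015, and without shCtrl 3, 2 were called higher and 2 lower, near the 17.8% and 17% of all genes. MTHFD2, of mitochondrial folate metabolism, measured 100, 102 and 653 CPM across the 3 control libraries and 808, 734 and 499 CPM across the 3 knockdown libraries. MTHFD1, its cytosolic relative, stayed between 182 and 191 CPM in all 6.

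**Figure D5:**
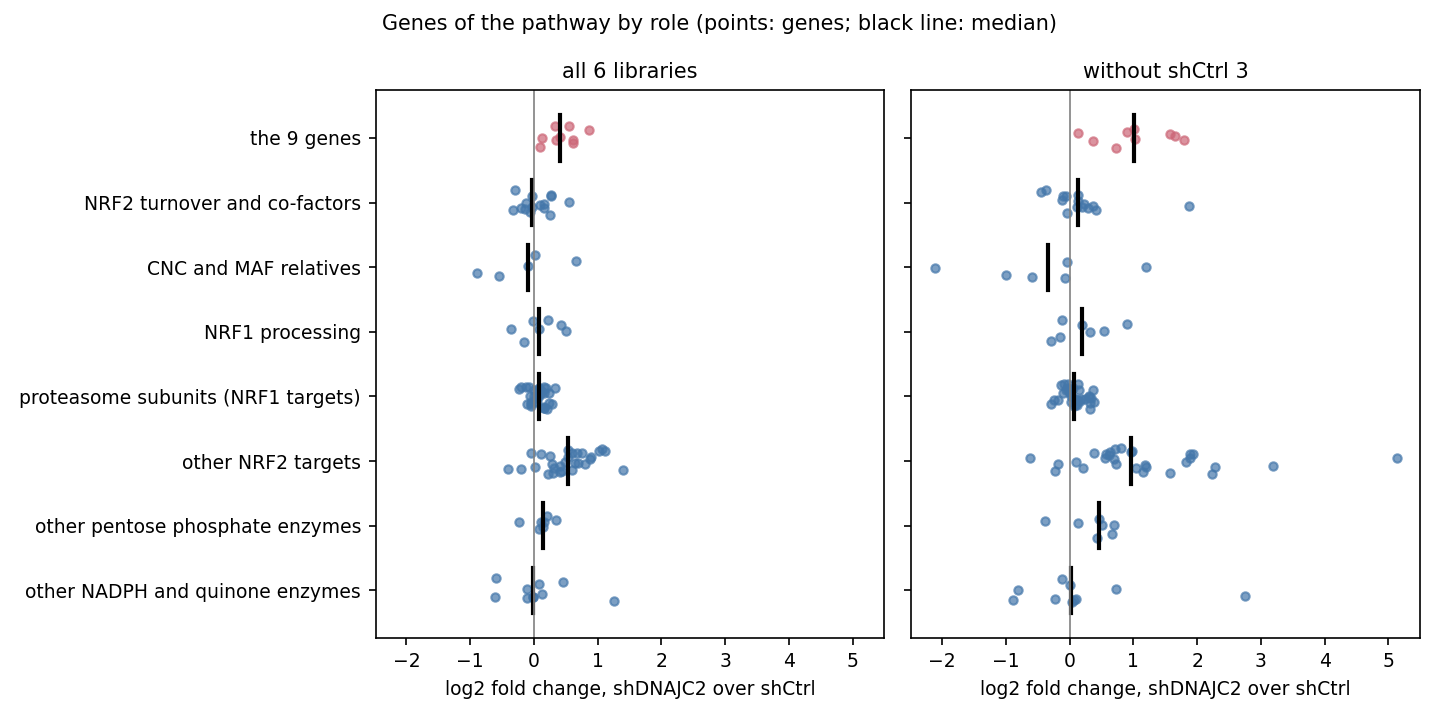
Log2 fold change of shDNAJC2 over shCtrl for each tested gene (points) of the 9 genes (red) and of the 7 lists of other pathway genes (blue), with the median of each as a black line, over all 6 libraries (left) and without shCtrl 3 (right). Without shCtrl 3 the medians of the 9 genes and of the other NRF2 targets lie at 1.004 and 0.96, and that of the proteasome subunits at 0.07.

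Promoter sequence was examined for the core of the antioxidant response element, the site of NRF2 and small MAF dimers, because the members other than NFE2L2 were high in the same libraries. The core was searched as TGACNNNGC on both strands in RefSeq promoter windows (GRCh38.p14, from 250 bases before to 50 bases after each start), which covered 8 of the 9 genes in 12 windows. A match was in 3 of the 12 windows (25%), for ME1, KEAP1 and MAFF, against 13.3% of 35116 windows of all genes. No match lay in the windows of NQO1, TALDO1, MAFG, NFE2L1 and NFE2L2, and sequence outside the windows was not searched. Among the other NRF2 targets 9 of 27 windows (33.3%) held one. The share was higher in the genes that process NRF1 (4 of 10 windows, 40%) and ran from 0% to 25% in the remaining lists. A match is a description of the letters and not evidence of binding.

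The ME1 window held 2 matches, at 137 bases before the start site and at 11 bases after it. The first is shown with its surroundings, since it is the 1 member site that also holds the overlapping AP-1 motif TGACTCA. That motif, searched as TGACTCA or TGAGTCA, was in 1 of the 12 windows (8.33%) and in 4.95% of all windows. It lies outside any annotated exon, and the stretch is chr6:83431140-83431228, minus strand, with the match in capitals.
ME1: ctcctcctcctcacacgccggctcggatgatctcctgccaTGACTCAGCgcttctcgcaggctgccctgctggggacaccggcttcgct

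The other member sites before a start site and, for comparison, 1 each of the targets GCLM and TXNRD1 are given with 10 bases on either side and the match in capitals, read 5′ to 3′ on the strand of the gene. The KEAP1 sites (minus strand) start 54 and 31 bases before 1 of its start sites. The MAFF site (plus strand) starts 122 bases before a start. The stretches printed for KEAP1, MAFF and GCLM overlap annotated exons, but the gene and transcript of those exons were not determined. The GCLM site starts 34 bases and the TXNRD1 site 99 bases before a start. TXNRD1 has further matches 8 and 102 bases before a start, which are not printed.
KEAP1, chr19:10502807-10502835: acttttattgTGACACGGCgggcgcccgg
KEAP1, chr19:10502784-10502812: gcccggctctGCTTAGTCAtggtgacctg
MAFF, chr22:38201862-38201890: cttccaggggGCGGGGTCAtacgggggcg
GCLM, chr1:93909446-93909474: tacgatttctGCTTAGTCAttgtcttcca
TXNRD1, chr12:104215670-104215698: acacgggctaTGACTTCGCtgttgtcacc
The second KEAP1 site and the GCLM site have the same 9 core letters, GCTTAGTCA, the core read on the opposite strand. Without shCtrl 3 the log2 fold change was 0.36 for KEAP1 and 2.23 for GCLM.

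Genes with the most similar profile over the 6 libraries were sought for the 7 members whose log2 CPM spanned at least 1, among 10963 other genes at 5 CPM or more, as the root mean square difference of log2 CPM after centring each gene. Nearest to NQO1 were INHBA, which encodes an activin subunit, and DUSP6, an ERK phosphatase gene, at 0.049 and 0.054. INHBA was measured at 42.3, 43.3 and 133 CPM for shCtrl 1, 2 and 3 and 134, 133 and 116 CPM for shDNAJC2 1, 2 and 3. Nearest to ME1 were NDUFAF4 (0.025) and the lactate transporter gene SLC16A1 (0.041), to TALDO1 MICAL2 (0.033) and SLC29A1 (0.041), and to NFE2L1 AKAP1 (0.019) and RASA3 (0.042). Nearest to MAFF were IRS2 (0.109) and UPP1 (0.120), to MAFG MGLL (0.043) and CORO2B (0.045), and to MAFK C15orf39 (0.028) and ERFE (0.052). Such likeness was common: 1024 genes lay within 0.2 of NFE2L1, 720 of TALDO1, 560 of ME1, 251 of MAFK, 97 of MAFG and 90 of NQO1, but 26 of MAFF. The libraries share the spread along the first principal component, which most of these profiles follow.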

How the data were processed

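RNA enriched for mRNA from 6 ACHN libraries had been sequenced as paired ends, per the labels' protocols. The authors deposited raw counts of reads per gene. They are taken as unnormalized because they are whole numbers and library totals differ. GRCh38 (hg38) is the build named per the submitters' processing notes. Aligner, counter, annotation and strandedness are not given in the sources used here. Columns were matched to libraries by title.

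The table was fitted whole in edgeR 4.0.16 (R 4.3.3) with filterByExpr, TMM factors, the two-sided quasi-likelihood F test with group as the only term and Benjamini-Hochberg adjustment at 0.05. CPM were scaled by TMM, with a prior count of 2 on the log2 scale. Of 20532 genes 20255 were matched to GENCODE 29 for position, length and GC content of the longest transcript. The floor of 3 counts was at most 0.180 CPM and covers counting error only. Alternatives were DESeq2 1.42.0, limma-voom (limma 3.58.1), other size factors and filters, GC offsets, a replicate block and leaving out each library. The fits were tested on simulated counts.

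The 9 genes and the 7 lists were chosen with earlier results of these data known. Named genes were the members, 14 genes fixed by name, DNAJC2 and the 2 most abundant genes of each list, since none was called. One of the genes fixed by name is not reported here. Overlapping neighbours and promoter sites were named from the annotation.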

Additional observations from a re-analysis of the deposited data

How the results depend on the processing

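The 14 other settings, all on these same libraries, gave 126 fitted values for the 9 genes. The direction held in all but 1 of these values: KEAP1 without shCtrl 1 was at −0.033. Leaving out 1 library at a time gave log2 fold changes of 0.0445 to 0.23 for NFE2L2, 0.16 to 0.73 for NFE2L1, −0.033 to 0.36 for KEAP1, 0.18 to 1.79 for MAFF, 0.32 to 1.57 for MAFG, 0.10 to 1.03 for MAFK, 0.59 to 1.66 for NQO1, 0.44 to 1.004 for ME1 and 0.21 to 0.89 for TALDO1. The upper end came without shCtrl 3 for each of them other than NFE2L2. On leaving out 1 library calls ran from 0 to 2532 higher and 0 to 2413 lower over all genes, 0 to 8 higher among the 9 and 0 to 38 higher and 0 to 8 lower over the 7 lists, and every count above 0 was without shCtrl 3. DESeq2 called 4 genes higher and 14 lower over all 6 libraries, none of them a member. Under the other settings with all libraries MAFF ran from 0.55 to 1.27 and KEAP1 from 0.10 to 0.33, both highest with the GC trend removed and the replicate block together. The difference in MAFF share was 0.954 to 6.61 percentage points, and that of the NFE2L2 to KEAP1 ratio −0.24 to 0.15, on leaving out 1 library. On leaving out 1 library the median of NRF2 turnover genes ran from −0.017 to 0.13 and that of the NRF2 relatives from −0.34 to 0.049, the last without shCtrl 2. The relatives' median was −0.10 over all libraries, −0.68 without a filter on low counts and −0.70 in DESeq2. With the GC trend removed MAFF and NQO1 were both at 0.81, and with the block as well MAFF (1.27) and MAFG (1.10) exceeded NQO1 (1.06).

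Between same-numbered libraries deviations from the group means correlated at −0.38, −0.52 and −0.66, and no library correlated best with its own number. Against each knockdown library shCtrl 1 and 2 had the same sign and shCtrl 3 the opposite one. The values thus follow the position of shCtrl 3 and cannot show whether same-numbered libraries were handled together. The replicate block called 0 members and 0 genes, and gave 0.11 for NFE2L2 and 1.11 for NQO1. Members had 795 counts or more in each library, so the spread between libraries and not depth limits these values.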
